A study of Homo sapiens with 6 samples.

Results

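The aldehyde dehydrogenase and retinoid genes are a set of 36 genes, made up of 18 aldehyde dehydrogenases and 18 genes that make, carry, sense or respond to retinoids. A gene entered the comparison when the platform annotation gave a probe set its symbol alone, and the brightest such probe set was kept, which found 31 of the 36 among 18417 genes in all. The samples were 6 cultures of the human colorectal cancer cell line HT29, each grown for 7 days and hybridised to its own array. In 3 the cells bore a control construct, and in the other 3 a construct expressing laminin α1, one of the chains of laminin in basement membranes. Each array is a separate culture passage, per the design text, and the labels used here give neither the promoter that drives the construct nor the number of clones. The set was compared to describe how retinoid and aldehyde metabolism differs between the groups, as a detail of the study's question of what laminin α1 does to colorectal cancer cells.

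Aldehyde dehydrogenases oxidise aldehydes to acids, and members of the family serve the breakdown of ethanol, fats, amino acids and folate as well as the making of retinoic acid. Retinol, which is vitamin A, is taken up by cells, oxidised to retinaldehyde by retinol dehydrogenases and then to retinoic acid by retinaldehyde dehydrogenases. Retinoic acid is carried to the nucleus by a binding protein and switches on genes through receptors of the RAR and RXR families. In the intestine this pathway supports the differentiation of epithelial cells, and high aldehyde dehydrogenase activity is used to mark stem-like cells in colon tumours.

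The deposited values are log2 values after RMA, a method that gives arrays nearly the same distribution, so 1 unit is a 2-fold difference and a shift common to all genes could not be seen. Array medians lay between 6.45 and 6.49, and precision is limited by the 3 arrays per group. All 8 colon epithelial markers were above the level filter of 5.50, with a mean of 11.08 to 11.20 in the control arrays and 11.04 to 11.09 in the laminin α1 arrays. Of these, KRT20 differed by -0.35 and LGALS4 by -0.31, both markers of differentiated colon epithelium and both past the test. KRT20 was lost without control replicate 2 or laminin α1 replicate 2 (adjusted p up to 0.0631), and LGALS4 without these or control replicate 1 (up to 0.102), and their part in the results below was not tested. Of other cell types, 4 of 6 fibroblast markers, 1 of 4 endothelial markers and 2 of 4 leukocyte markers were above the filter, and none of them passed the test. The mean of the fibroblast list was 5.56 to 5.65 in control and 5.57 to 5.64 in laminin α1 arrays, that of the endothelial list 5.28 to 5.33 and 5.30 to 5.35, and that of the leukocyte list 7.22 to 7.27 and 7.22 to 7.32. PTPRC, the pan-leukocyte marker, lay below the filter on every array, while LYZ, which intestinal epithelium also makes, and CD14 set the leukocyte mean. The construct's own gene, LAMA1, read 5.71, 5.63 and 5.60 in control and 5.79, 5.72 and 5.71 in laminin α1 arrays (adjusted p = 0.535), a level near the filter. Whether the construct's transcript reaches this probe set is not given in the labels used here, so it does not check the labels.

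Of the 31 genes found, 26 had a mean level above the filter and were tested, and 3 passed an adjusted p of 0.05 in limma over all 13812 genes tested. ALDH1L1, which breaks down a folate cofactor, and CRABP2, which carries retinoic acid to its receptors, rose in the laminin α1 arrays. ALDH3A2, which oxidises fatty aldehydes, fell. All 3 changes were small, with a largest fold of 1.29. The share called was 11.5% of the 26, against 5.29% of all genes tested. By direction, 2 of 26 were higher, where 2.69% of all genes were, and 1 of 26 was lower, where 2.59% were.

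For 12 of the 26 tested genes, or 46.2%, every laminin α1 array lay above or every one lay below all control arrays, against 21.6% of all genes tested. In 5 of these the laminin α1 arrays were higher and in 7 lower. The median difference of the 26 was -0.09 and the median size of the difference, ignoring sign, was 0.165, against -0.01 and 0.0760 over all genes tested. Differences were negative in 18 and positive in 8. The spread between passages was like that of other genes, with a median SD of 0.073 in control and 0.093 in laminin α1 arrays, against 0.075 and 0.093 over all genes tested.

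**Figure D1:**
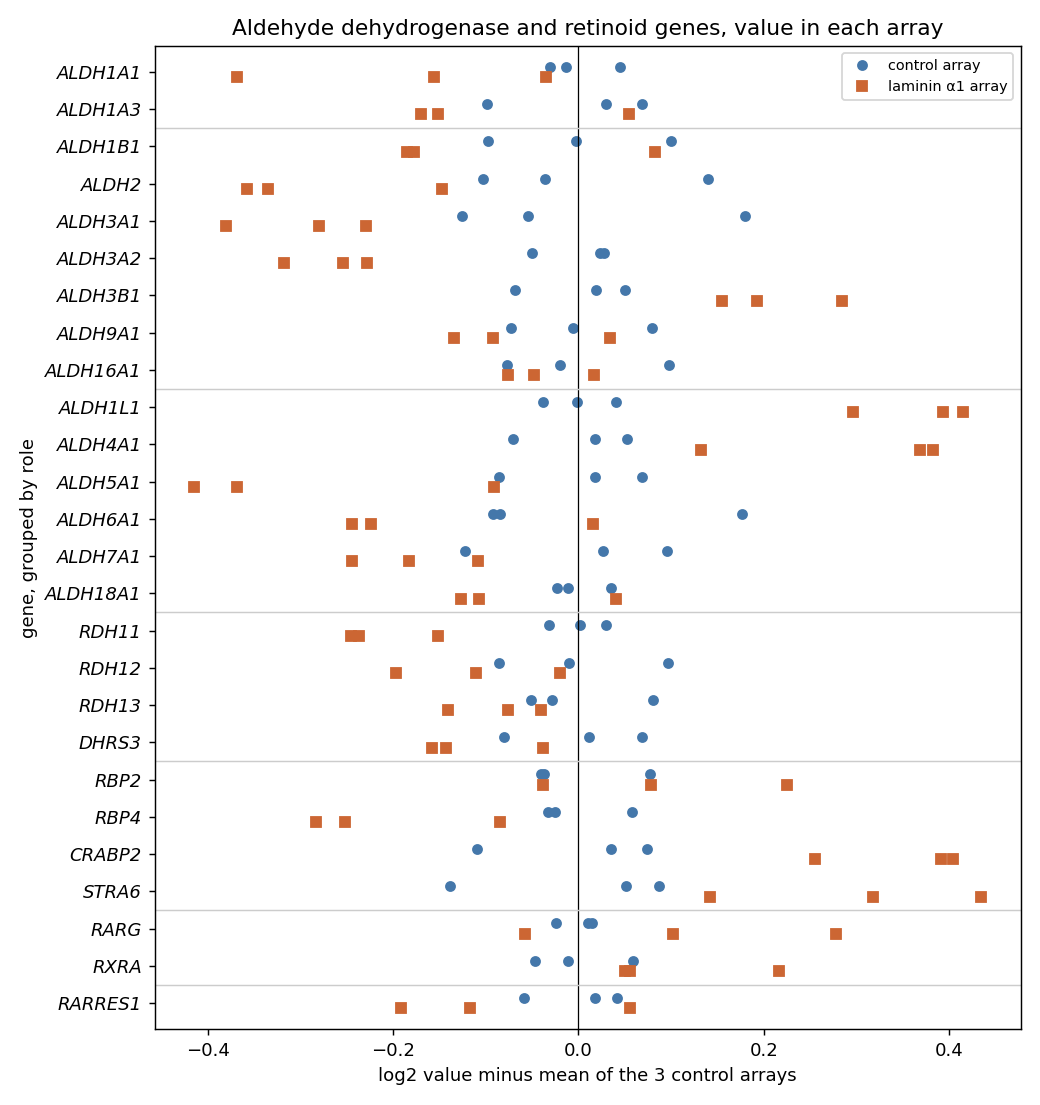
Log2 value of each of the 26 tested genes in each array, minus the mean of the 3 control arrays (x axis, log2 units), with 1 gene per row and grey lines between roles. Circles are control and squares laminin α1 arrays. The squares of ALDH1L1 and CRABP2 lie wholly to the right and those of ALDH3A2 wholly to the left of their circles, while 14 genes overlap.

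The retinaldehyde dehydrogenases make retinoic acid, and none of those tested passed. ALDH1A1, the cytosolic enzyme most used as a marker of stem-like cells, read 11.93, 11.95 and 12.01 in control and 11.59, 11.81 and 11.93 in laminin α1 arrays. The laminin α1 arrays were all lower, replicate 3 by less than the rounding shown, and the difference of -0.19 (SE 0.09, 95% interval -0.38 to 0.01) did not pass (adjusted p = 0.322). It was -0.10 without laminin α1 replicate 1 and -0.26 without laminin α1 replicate 3. ALDH1A3, its relative in many tumours, overlapped between the groups, with a difference of -0.09 (95% interval -0.27 to 0.09). A second, dimmer ALDH1A3 probe set gave -0.19 (SE 0.13). ALDH1A2, the main embryonic enzyme, and ALDH8A1, an enzyme now placed in tryptophan breakdown, had mean levels over all arrays under the filter. ALDH1A2 lay between 5.10 and 5.21 on all 6 arrays, and in a fit without the filter its interval was -0.13 to 0.14. That of ALDH8A1 was -0.28 to 0.10.

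Among the aldehyde dehydrogenases that clear reactive aldehydes, 1 of 7 tested genes was lower and none was higher. ALDH3A2, the fatty aldehyde dehydrogenase of the endoplasmic reticulum, which is mutated in Sjögren-Larsson syndrome, read 9.74, 9.67 and 9.74 in control and 9.40, 9.46 and 9.49 in laminin α1 arrays. All laminin α1 values lay under all control values. The difference was -0.27 (SE 0.06, n = 3 per group), or 1.20-fold lower, with adjusted p = 0.0379 in limma. This call rested on all but 1 array: it was kept without laminin α1 replicate 3 (adjusted p = 0.0359) and lost without any other single array, up to adjusted p = 0.138 without laminin α1 replicate 2.

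ALDH3A1, the cytosolic relative of ALDH3A2 that is abundant in cornea, read 8.02, 7.78 and 7.71 in control and 7.61, 7.56 and 7.46 in laminin α1 arrays. The groups did not overlap, control replicate 1 was the highest, and the difference of -0.30 (SE 0.09) did not pass (adjusted p = 0.0958). ALDH2, the mitochondrial enzyme that oxidises acetaldehyde from ethanol, read 10.86, 10.68 and 10.62 in control and 10.57, 10.36 and 10.38 in laminin α1 arrays. Here too the laminin α1 arrays were all lower, and the difference of -0.28 (95% interval -0.47 to -0.09) did not pass (adjusted p = 0.108). ALDH3B1, which acts on aldehydes from lipid peroxidation, had the opposite sign. It read 8.86, 8.74 and 8.82 in control and 9.00, 9.09 and 8.96 in laminin α1 arrays, a difference of 0.21 (adjusted p = 0.127).

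The other enzymes of this role overlapped between the groups. ALDH1B1, a mitochondrial enzyme known to be abundant in colon tumours, differed by -0.09 (95% interval -0.29 to 0.11). ALDH9A1, which serves carnitine synthesis, differed by -0.06 (95% interval -0.23 to 0.10). ALDH16A1, an atypical member of the family, differed by -0.04 (95% interval -0.19 to 0.12).

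Aldehyde dehydrogenases of amino acid and folate metabolism had differences of both signs, with 1 of 6 tested genes higher and none lower past the threshold. ALDH1L1, the cytosolic enzyme that turns formyltetrahydrofolate into tetrahydrofolate and carbon dioxide, read 6.17, 6.24 and 6.20 in control and 6.62, 6.50 and 6.60 in laminin α1 arrays. The 2 groups were well apart, with less spread inside each than between them. The mean level of ALDH1L1 over all arrays was 6.39, at percentile 38.8 of all genes. The difference was 0.37 (SE 0.06, n = 3 per group), or 1.29-fold, with adjusted p = 0.00814 in limma. It passed whichever of the 6 arrays was left out, with adjusted p between 0.0157 and 0.0415. Its mitochondrial counterpart ALDH1L2 was below the filter, between 4.22 and 4.37 on all arrays.

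ALDH4A1, the mitochondrial enzyme that ends proline breakdown in glutamate, read 7.66, 7.58 and 7.70 in control and 8.01, 8.03 and 7.78 in laminin α1 arrays. All laminin α1 arrays were higher, replicate 3 by least, and the difference of 0.29 (SE 0.08) did not pass (adjusted p = 0.0754). It passed without laminin α1 replicate 3 (adjusted p = 0.0112). ALDH18A1, which runs the opposite route from glutamate towards proline, overlapped between the groups at -0.06 (95% interval -0.22 to 0.09). ALDH5A1, the succinate semialdehyde dehydrogenase that ends the breakdown of GABA, read 7.05, 7.00 and 6.90 in control and 6.89, 6.57 and 6.62 in laminin α1 arrays. The highest laminin α1 value lay just under the lowest control value. The difference was -0.29 (adjusted p = 0.12), and it passed without laminin α1 replicate 1 (adjusted p = 0.0161). ALDH6A1, of valine and thymine breakdown, differed by -0.15 (95% interval -0.37 to 0.07), and a second, dimmer probe set of it gave 0.07 (SE 0.10). ALDH7A1, of lysine breakdown, differed by -0.18 (95% interval -0.35 to -0.01, adjusted p = 0.265). Both overlapped between the groups.

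**Figure D2:**
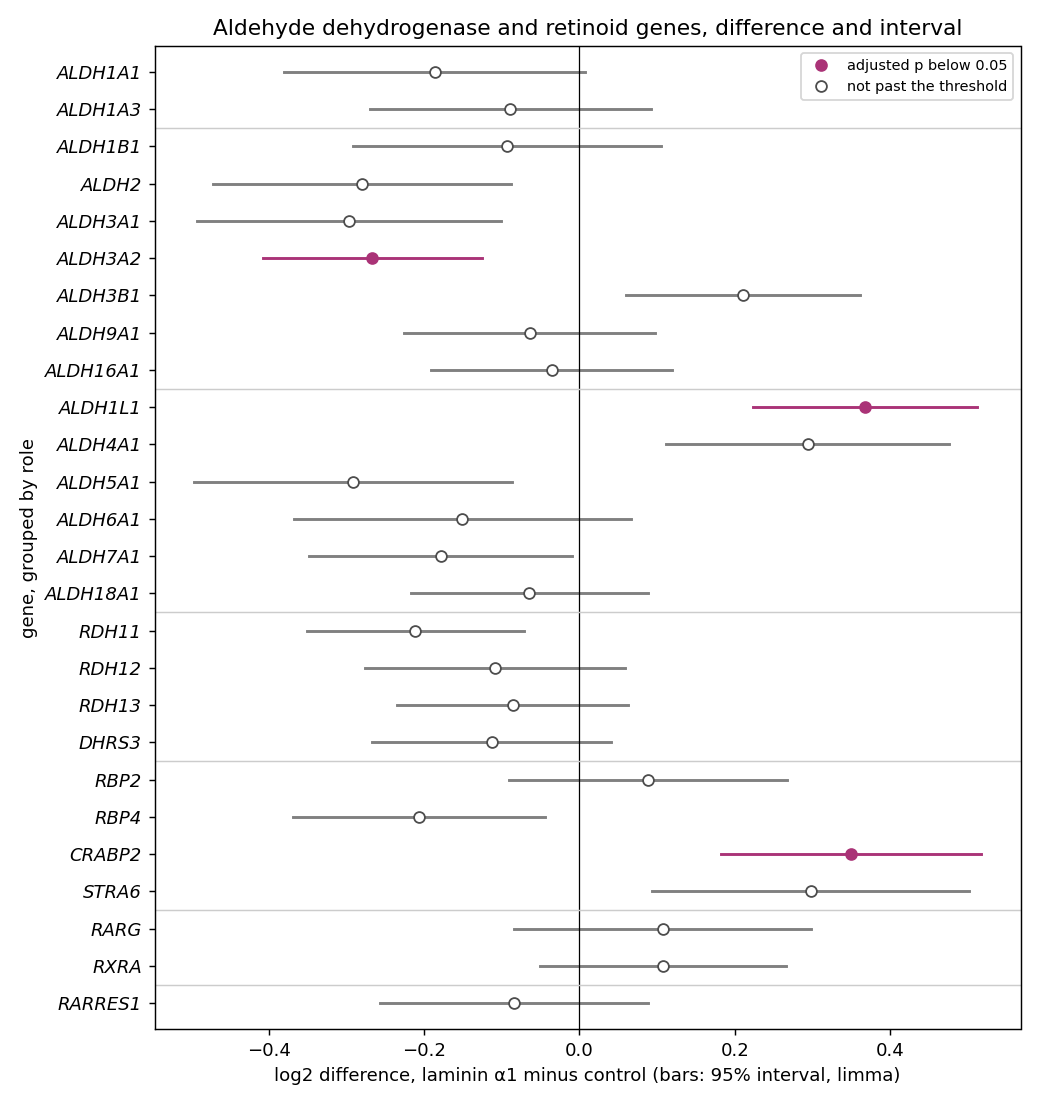
Log2 difference between laminin α1 and control arrays (x axis, laminin α1 minus control) for the 26 tested genes, with 95% intervals from limma. Filled points passed an adjusted p of 0.05 and open points did not. ALDH1L1 at 0.37 and CRABP2 at 0.35 are the highest, and all 4 retinol dehydrogenases and retinal reductases lie left of 0.

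None of the 4 tested retinol dehydrogenases and retinal reductases passed, and all 4 differences were negative. RDH11, which reduces retinaldehyde in the endoplasmic reticulum, read 9.26, 9.20 and 9.24 in control and 8.99, 9.00 and 9.08 in laminin α1 arrays. Its groups did not overlap, and the difference was -0.21 (95% interval -0.35 to -0.07, adjusted p = 0.0961). DHRS3, a retinaldehyde reductase that retinoic acid itself induces, differed by -0.11 (95% interval -0.27 to 0.04). RDH12, best known from photoreceptors, differed by -0.11 (95% interval -0.28 to 0.06), and RDH13, a mitochondrial member, by -0.09 (95% interval -0.23 to 0.06). DHRS9, which oxidises retinol, lay below the filter, between 4.90 and 5.07 on all arrays. RDH5 and RDH14 had only probe sets shared with readthrough transcripts of a neighbouring gene, which differed by -0.12 and 0.0066 in a fit over all probe sets.

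Of the 4 tested genes of retinoid binding and uptake, 1 was higher and none lower. CRABP2, the binding protein that brings retinoic acid to RAR in the nucleus, read 10.53, 10.49 and 10.35 in control and 10.86, 10.85 and 10.71 in laminin α1 arrays. All laminin α1 values lay above all control values, and the difference was 0.35 (SE 0.07, n = 3 per group), or 1.27-fold, with adjusted p = 0.0239 in limma. The call was kept without control replicate 1 or laminin α1 replicate 3 and lost without any of the other 4 arrays, up to adjusted p = 0.119 without laminin α1 replicate 2.

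STRA6, the membrane receptor that takes retinol from its plasma carrier, read 7.26, 7.29 and 7.07 in control and 7.64, 7.35 and 7.52 in laminin α1 arrays. The laminin α1 arrays were all higher, and the difference of 0.30 (95% interval 0.09 to 0.50) did not pass (adjusted p = 0.108). RBP4, that plasma carrier, had the opposite sign. It read 7.40, 7.41 and 7.49 in control and 7.35, 7.18 and 7.15 in laminin α1 arrays, a difference of -0.21 (adjusted p = 0.169) with no overlap. RBP2, the retinol-binding protein of enterocytes, overlapped at 0.09 (95% interval -0.09 to 0.27) and lay near the filter, between 5.57 and 5.84. CRABP1 had no probe set under its symbol in the annotation used here.

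The promoters of the 3 genes that passed are shown to set beside them the letters that retinoic acid receptors are known to favour. Each is the stretch of 250 bases before the first start listed in RefSeq for GRCh38.p14, on the gene's strand, at chr1:156705785-156706034 (minus strand) for CRABP2, chr3:126180587-126180836 (minus strand) for ALDH1L1 and chr17:19647886-19648135 (plus strand) for ALDH3A2. Capitals mark the receptor hexamer AGGTCA or its reverse complement TGACCT.
CRABP2: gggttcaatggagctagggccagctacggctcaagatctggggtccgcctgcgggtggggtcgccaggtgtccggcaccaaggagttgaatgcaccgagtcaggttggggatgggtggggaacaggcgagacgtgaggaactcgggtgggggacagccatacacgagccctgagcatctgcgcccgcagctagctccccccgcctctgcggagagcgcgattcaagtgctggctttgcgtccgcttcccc
ALDH1L1: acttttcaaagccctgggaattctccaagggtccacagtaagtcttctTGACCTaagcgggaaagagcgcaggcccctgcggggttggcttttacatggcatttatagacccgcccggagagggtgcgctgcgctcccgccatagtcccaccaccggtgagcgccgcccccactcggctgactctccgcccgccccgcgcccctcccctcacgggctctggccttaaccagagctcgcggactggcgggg
ALDH3A2: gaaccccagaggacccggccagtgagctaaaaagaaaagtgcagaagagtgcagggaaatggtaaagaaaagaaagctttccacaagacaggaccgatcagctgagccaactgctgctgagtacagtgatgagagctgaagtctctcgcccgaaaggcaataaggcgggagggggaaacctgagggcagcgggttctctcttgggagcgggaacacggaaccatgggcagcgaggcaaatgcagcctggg
ALDH1L1 held 1 hexamer, from 202 to 197 bases before the start, and the windows of CRABP2 and ALDH3A2 held none of this strict form. The looser form used for RARB and CYP26A1 below was not marked here. The CRABP2 window holds 1 such match, GGTTCA, at its far end. Of the 36 genes, 30 had promoters in the table, 53 windows in all, and the hexamer occurred in 8 windows, or 15.1%, against 12.1% of all 35116 windows searched on both strands. The match is a description of the letters, since no binding was measured here.

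The receptors themselves did not pass. RARG, a receptor abundant in epithelia, read 8.59, 8.55 and 8.59 in control and 8.86, 8.68 and 8.52 in laminin α1 arrays. The laminin α1 arrays lay on both sides of the control arrays, with a difference of 0.11 (95% interval -0.08 to 0.30). RXRA, the common partner of RAR, overlapped at 0.11 (95% interval -0.05 to 0.27). RARA had a single probe set, which the annotation also gives to BCOR, and that probe set differed by 0.16 (SE 0.07, adjusted p = 0.446 over all probe sets).

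RARB, a receptor gene that retinoic acid induces through a response element in its own promoter, lay below the filter on every array. It read 4.73, 4.46 and 4.49 in control and 4.40, 4.32 and 4.51 in laminin α1 arrays, and without the filter the interval of its difference was -0.34 to 0.04. CYP26A1, the enzyme that degrades retinoic acid and another gene induced through such elements, was also below it. It read 5.42, 5.35 and 5.35 in control and 5.39, 5.43 and 5.39 in laminin α1 arrays (interval without the filter -0.10 to 0.16). Neither gene therefore showed a level above the filter in either group. The elements of both were found in their promoters and are shown as the classical sequence of the pathway, with the paired hexamers in capitals and the spacer of 5 bases in lower case. They lie at chr3:25428210-25428226 and chr10:93073803-93073819 in GRCh38.p14, both on the plus strand.
RARB: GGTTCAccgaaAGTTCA
CYP26A1: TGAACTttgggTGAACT
The RARB element runs from 53 to 37 bases before the start and that of CYP26A1 from 90 to 74, where it reads in the reverse direction. This pair of hexamers, the DR5 retinoic acid response element searched on both strands with A or G as the first and G or T as the third base of each hexamer, occurred in 26 of 35116 windows, or 0.074%. Among the 53 windows of the 36 genes RARB alone held it, at chr3:25428013-25428262 on the plus strand, shown in full with the whole element, spacer included, in capitals.
RARB: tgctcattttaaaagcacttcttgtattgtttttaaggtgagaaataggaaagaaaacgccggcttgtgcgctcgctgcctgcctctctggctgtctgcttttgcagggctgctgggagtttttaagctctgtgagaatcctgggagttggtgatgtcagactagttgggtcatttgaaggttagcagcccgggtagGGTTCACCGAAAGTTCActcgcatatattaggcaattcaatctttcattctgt

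RARRES1, a membrane protein named for its response to retinoids, overlapped between the groups at -0.08 (95% interval -0.26 to 0.09). RARRES3, a phospholipase named in the same way and also known to be induced by interferon, was not matched by symbol, because the annotation lists it under its current symbol PLAAT4. PLAAT4 read 9.11, 9.00 and 9.23 in control and 10.21, 9.62 and 9.45 in laminin α1 arrays. All laminin α1 arrays were higher, replicate 1 by most, and the difference of 0.65 (SE 0.16), or 1.57-fold, missed the threshold (adjusted p = 0.0502). Leaving out 1 array gave adjusted p between 0.00742, without laminin α1 replicate 3, and 0.177, without control replicate 2. It was also past the threshold without laminin α1 replicate 1, where the difference was 0.43 (adjusted p = 0.0276). With the arrays complete it passed with array weights (adjusted p = 9.55e-05) and narrowly with averaged probe sets (0.0499) and a trended, robust eBayes (0.0487). It is left out of the counts above, which with it would still be 2 higher and 1 lower under the settings used there.

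Of 10 other tested genes known to respond to retinoic acid, 3 were higher and none lower, or 30%, with a median difference of 0.03. Over all genes tested, 5.29% were called and 2.69% were higher. Differences in the list were positive in 5 and negative in 5. The list, like the others, was chosen with earlier results of these data known, so its share is a description and not a test. Over all 66 other pathway genes tested, 3 were higher and 4 lower, or 10.6%. TGM2, a transglutaminase that crosslinks proteins, read 10.37, 10.19 and 10.15 in control and 11.30, 11.19 and 11.14 in laminin α1 arrays. The groups were far apart, and the difference was 0.97 (SE 0.08), or 1.96-fold (adjusted p = 5.92e-05). TNFAIP2, which tumour necrosis factor also induces, read 8.15, 7.94 and 7.96 in control and 8.84, 8.63 and 8.55 in laminin α1 arrays. It rose by 0.65 (SE 0.09, adjusted p = 0.00214), again with no overlap. MEIS2, a homeobox factor, read 9.79, 9.80 and 9.81 in control and 10.08, 10.12 and 10.13 in laminin α1 arrays and rose by 0.31 (SE 0.06, adjusted p = 0.0123). TGM2 and TNFAIP2 passed whichever array was left out, and MEIS2 was lost without control replicate 1, control replicate 2 or laminin α1 replicate 2 (adjusted p up to 0.0807). The other 7 lay between -0.14 and 0.12. Retinoic acid itself was not measured, and these genes have other known inducers.

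**Figure D3:**
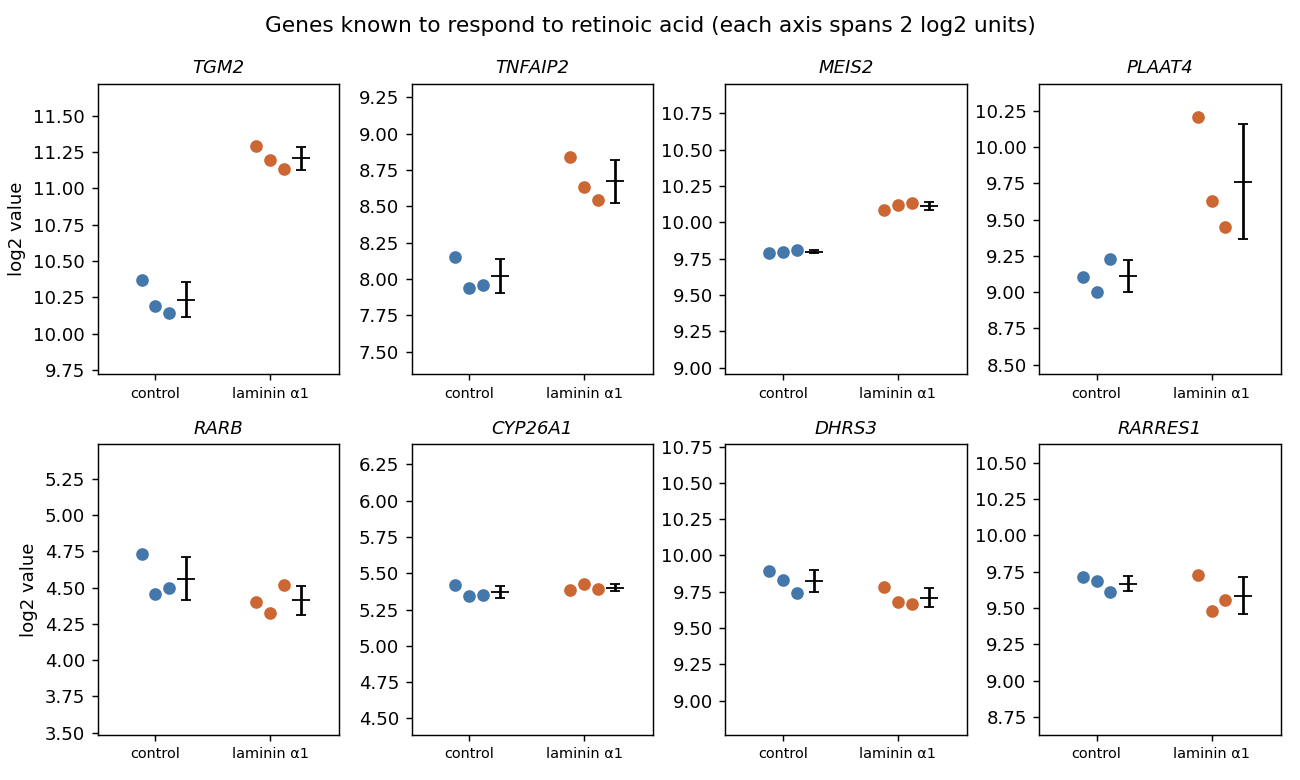
Log2 values of 8 genes known to respond to retinoic acid in control and laminin α1 arrays (points, 1 per array; black bars, mean ± SD, n = 3). Each y axis spans 2 log2 units. The genes shown were picked, and the 7 tested genes of the response list that did not pass are not among them. TGM2, TNFAIP2 and MEIS2 passed the test, PLAAT4 missed it, and RARB and CYP26A1 lay below the level filter of 5.50 in both groups.

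The remaining genes of retinoid metabolism were described from lists with the set's own members left out. Of 15 tested oxidoreductases and hydroxylases, 1 was lower and none higher. It was AKR1B10, a reductase of retinaldehyde, which fell from 8.25 ± 0.19 to 7.72 ± 0.16 (SD, n = 3, adjusted p = 0.0179), and whether its probe set also reads the close copy AKR1B15 was not tested. Its call was lost without control replicate 2, control replicate 3 or laminin α1 replicate 2 (adjusted p up to 0.0692). None of 8 tested genes of uptake, storage and transport passed, with differences from -0.19 to 0.09. Of 11 other nuclear receptors and coregulators, 1 was lower, NCOA1, a coactivator of nuclear receptors. It read 8.22, 8.26 and 8.19 in control and 7.81, 7.75 and 7.85 in laminin α1 arrays, a difference of -0.42 (SE 0.06, adjusted p = 0.00329) that passed whichever array was left out.

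Of 23 tested enzymes that act beside the aldehyde dehydrogenases in their pathways, 2 were lower and none higher. AADAT, an aminotransferase that acts after ALDH7A1 in lysine breakdown and also in tryptophan breakdown, read 7.43, 7.58 and 7.75 in control and 7.03, 6.90 and 7.01 in laminin α1 arrays. Its difference was -0.60 (SE 0.09), or 1.52-fold lower (adjusted p = 0.00263). HIBADH, which makes the substrate of ALDH6A1 in valine breakdown, fell from 10.05 ± 0.04 to 9.71 ± 0.11 (SD, n = 3, adjusted p = 0.0234). AADAT passed whichever array was left out, while HIBADH passed only without laminin α1 replicate 1 or 3 and reached adjusted p = 0.126 without another. The folate enzymes tested lay between -0.18 (MTHFD2) and 0.12 (MTHFD1), and none passed.

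Position was described by gene order along the chromosomes, taken from RefSeq for GRCh38.p14 and used for order only, over the 5 nearest tested genes on each side. ALDH3A2 and ALDH3A1 lie close together, with SLC47A2 the only tested gene between them. ALDH3A2 differed by -0.27, and its 10 neighbours had a median of -0.06, with none called. ALDH3A1, at -0.30, is among those 10 and the lowest of them. The 10 neighbours of ALDH3A1 had a median of -0.0070, with ALDH3A2 the only gene called. The 10 neighbours of CRABP2 lay between -0.03 and 0.09, and none was called. Those of ALDH1L1 lay between -0.14 and 0.31, with KLF15, a transcription factor gene beside it, the highest, and none was called. RDH11 and RDH12 are also direct neighbours, at -0.21 and -0.11.

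**Figure D4:**
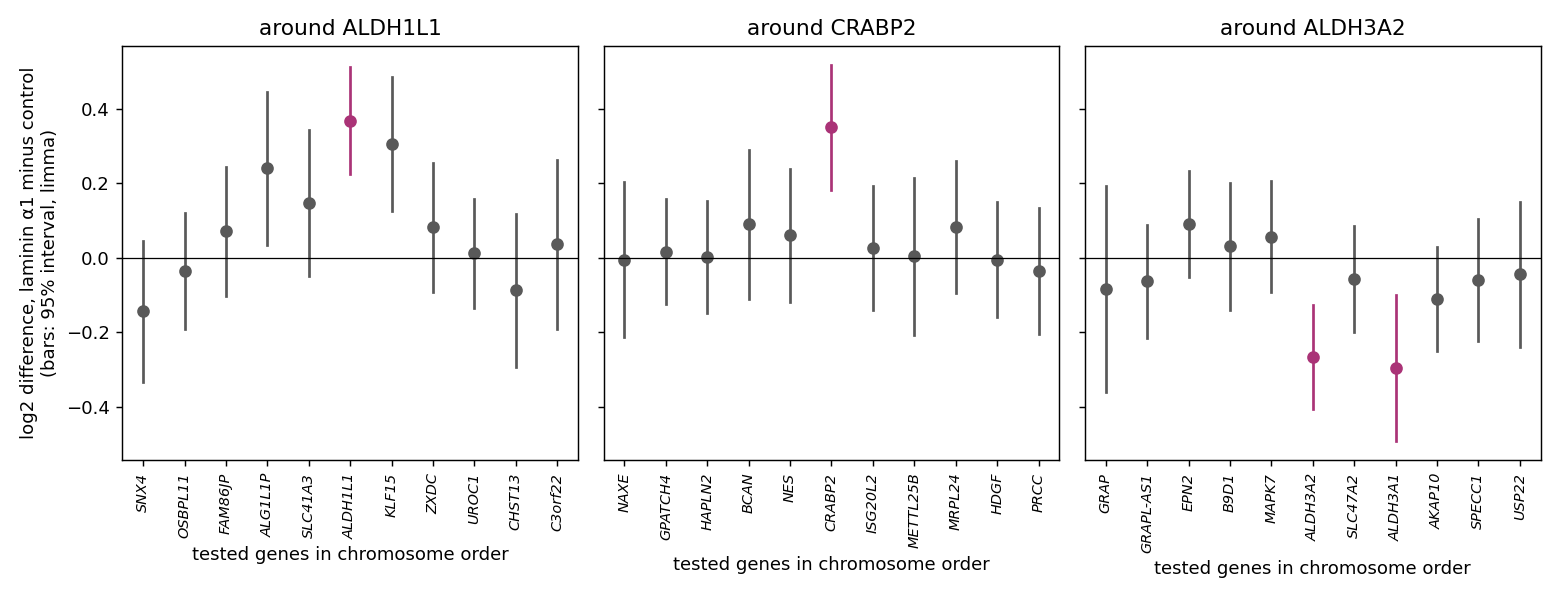
Log2 difference between laminin α1 and control arrays (y axis, with 95% intervals from limma) of ALDH1L1, CRABP2 and ALDH3A2 and the 5 tested genes on each side in chromosome order (x axis). Coloured points belong to the set of 36 and grey points are neighbours. CRABP2 stands alone at 0.35, ALDH3A2 and ALDH3A1 are both low, and KLF15 at 0.31 lies beside ALDH1L1.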

How the data were processed

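The authors deposited log2 expression values per probe set, which the submitters' processing notes ascribe to RMA in Affymetrix Expression Console 1.1. They were used as deposited for 33297 probe sets on 6 arrays. The platform annotation gave exactly 1 symbol to 19460 probe sets and several to 1754, and 12083 had no entry. The brightest single-symbol probe set stood for each of 18417 genes. The 13812 genes whose mean level exceeded the 25th percentile of all genes (log2 5.50) were tested. Differences, laminin α1 minus control, were fitted with limma 3.58.1 (lmFit and eBayes, no covariates) in R 4.3.3, and p-values were adjusted by Benjamini-Hochberg over all genes tested, with a threshold of 0.05. The fit was run on simulated data with noise drawn independently for each array. That run does not test the fit where arrays share deviations.

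The members and lists were chosen with earlier results of these data known. Every member was named, with the called genes of each other list and, as a classical retinoic acid target, CYP26A1. Same-numbered arrays deviated from their group means with correlations of 0.39, 0.02 and 0.53, and differently numbered ones with correlations from -0.49 to 0.16. The labels used here state no pairing, so the main fit took none. A fit with the replicate number as a block, which changed the counts, is given below. An exact permutation test of 3 against 3 arrays cannot give a p below 0.1 and was not used. P-values weigh the difference between groups against the spread between passages. They do not cover differences between clones, whose number the labels used here do not give.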

Additional observations from a re-analysis of the deposited data

How the results depend on the processing

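Over all genes, 730 passed the threshold. The count was 393 at an adjusted p of 0.01, 4691 with array weights, 1596 with the replicate number as a block, and 405 to 1211 with 1 array left out. Among the fits with 1 array left out, it moved most without control replicate 2 (405), laminin α1 replicate 2 (429) and laminin α1 replicate 3 (1211). Of the 36 genes, 2 were higher and 1 was lower. The higher count was 1 with the filter at the 50th percentile, where ALDH1L1 was not tested, 1 at an adjusted p of 0.01, 6 with array weights, and 1 to 3 with 1 array left out. The lower count was 0 at an adjusted p of 0.01, 12 with array weights, 5 with the replicate block, and 0 to 1 with 1 array left out. Under the replicate block 3 were higher. ALDH2, ALDH3A1, ALDH5A1 and RDH11 then passed as lower (adjusted p = 0.0140, 0.0168, 0.0270 and 0.0457) and ALDH4A1 as higher (adjusted p = 0.0457). The array weights ran from 0.317 to 10.7 and their estimation stopped before it converged, so those counts are uncertain. Removing the filter, averaging a gene's probe sets, centring arrays, normalizing again and a trended, robust eBayes left both counts as they were. In the limma fit over all probe sets, ALDH1L1 stayed past the threshold (adjusted p = 0.0301). CRABP2 (adjusted p = 0.0785) and ALDH3A2 (adjusted p = 0.0859) did not. Counting RARRES3 through PLAAT4, chosen after seeing the data, left the counts at 2 higher and 1 lower with the other settings kept. PLAAT4 would add 1 to the higher count with averaged probe sets, a trended, robust eBayes, array weights or the replicate block (adjusted p = 0.0216). The median SE of the 26 tested genes was 0.0754, which limits the differences that 3 arrays per group can show.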

Other observations

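Within each group 1 array was often the highest for these genes. Control replicate 1 was the highest control array for 20 of the 26 tested genes, or 76.9%, against 48.8% of all genes tested. Laminin α1 replicate 1 was the highest of its group for 19 of the 26, or 73.1%, against 43.2% of all genes tested. The labels give no reason for it, and its part in the differences above was not tested.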
